A study of Mus with 2 samples.

Results

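The genes described here are 9 genes of plasminogen activation and coagulation that macrophages are known to express. They were chosen by name, and every non-control probe whose RefSeq transcript belongs to Plau, Plat, Plaur, Serpinb2, F3, F7, F10, Thbd or Tfpi was taken, which gave 14 probes for 9 of the 20060 genes with a matched probe. The samples were bone marrow derived macrophages (BMDMs) of male C57BL6/J mice aged 10 weeks. They were grown for 7 days in 10 ng/mL of M-CSF, the growth factor that turns bone marrow cells into macrophages. All cells then received 10 ng/mL of IL-4, the cytokine used to induce the M2 state, for 24 hr. During that time, 1 culture was given DMSO, the solvent, and the other was given 10 µM GW4064, a synthetic agonist of the farnesoid X receptor (FXR). RNA of each culture was read on 1 Agilent 1-colour array, so replicate error is unknown, no p-value can be given, and differences are described by their size. How many mice the cultures came from is not given in the sources used here.

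Plasminogen activators cut the proenzyme plasminogen into plasmin, a protease that dissolves fibrin clots and helps cells move through tissue. Serpins such as PAI-2 block the activators, and the receptor uPAR holds urokinase at the cell surface. Coagulation runs the other way: tissue factor binds factor VII, this complex activates factor X, and factor X in turn makes thrombin, while thrombomodulin and tissue factor pathway inhibitor hold these steps back. Macrophages contribute to both systems, which connects them with wound healing and fibrin turnover.

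Values are the intensity of each spot after the scanner software subtracted background, and log2 differences are GW4064 minus DMSO with each array's 75th percentile set to 0 (a signal of 1209 on the DMSO array, 1265 on the other). A spot was "well above background" where the software marked it so, which held for 57.4% of the probes with DMSO and 58.5% with GW4064. A gene counted as measured when at least 1 of its probes was well above background on at least 1 array, and 13533 genes were. The error after each signal below is the one the software estimated for that spot. A second measure of technical error came from 234 probes that were printed several times and were above background at every spot, whose log2 difference had a median SD of 0.077 over their copies. Neither error includes the spread between cultures. All 7 macrophage markers with a matched probe were measured, with signals for Lyz2, a lysozyme gene, of 28325 with DMSO and 30947 with GW4064. The marker Cd68 had no matched probe. Nr1h4, the gene of FXR itself, had 1 matched probe, which stayed near background with DMSO and with GW4064.

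All 14 probes of the 9 genes were well above background on both arrays. Serpinb2, which encodes the plasminogen activator inhibitor PAI-2, was 4.19-fold lower with GW4064 and was the only one of the 9 that differed 2-fold or more. The other 8 genes lay between a log2 difference of -0.38 for F3 and 0.24 for Plau, that is, within 1.30-fold. Of the 9 genes, 2 were higher (Plau and Tfpi) and 7 were lower, with a median of -0.12, against a median of 0.0069 over all 13533 genes. Over all genes, 48.2% were lower. Of all genes measured, 2.04% reached 2-fold upward and 2.71% downward, so 0 of 9 and 1 of 9 are counts too small to set against those shares. At 1.5-fold the counts were the same, 0 higher and 1 lower, against 4.39% and 5.56% of all genes. Of the 14 probes, 8 differed by less than the software's own error of the difference, which was between 0.20 and 0.42 on the log2 scale.

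**Figure D1:**
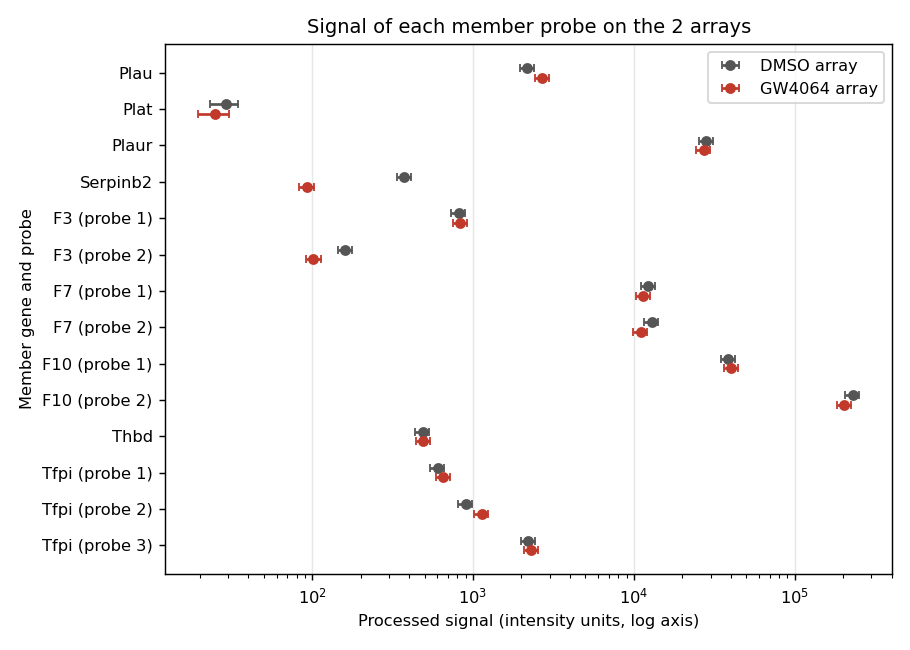
Processed signal (log axis, intensity units) of each of the 14 probes with DMSO (grey) and GW4064 (red), with the software's error of the spot as bars. Serpinb2 stands apart, at 372 with DMSO and 92.9 with GW4064, and the second F3 probe is next with 160 and 102.

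Plau encodes urokinase, the plasminogen activator that works mainly at cell surfaces. Its probe (A_52_P302433, NM_008873) had a signal of 2178 ± 218 with DMSO and 2689 ± 269 with GW4064. The difference of 0.24, or 1.18-fold higher with GW4064, was just above the software's error of 0.20 and above the copy SD of 0.071 among probes of like signal. It was higher in each of the 12 other settings tried and was 0.051 when the arrays were centred on spike-in RNA in place of the 75th percentile. Settings that only choose spots or probes could not change it, since Plau has a single probe.

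Plat encodes tissue plasminogen activator, which acts mainly on fibrin. It was close to background, with signals of 29.0 ± 5.78 with DMSO and 24.9 ± 5.30 with GW4064, where the lowest signals well above background were 15.7 and 15.1. Its difference of -0.29 was smaller than the software's error of 0.42, and it turned to 0.11 with another background correction (normexp), so no direction can be given for Plat.

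Plaur encodes uPAR, the receptor of urokinase, and was strongly detected. Its signals were 28267 ± 2827 with DMSO and 27201 ± 2720 with GW4064, a difference of -0.12, which is within the software's error of 0.20. The urokinase receptor and its ligand thus lay on either side of 0, and Plau minus Plaur came to 0.36, a quantity in which a constant shift between the arrays cancels.

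Serpinb2 encodes PAI-2, a serpin that inhibits urokinase and tissue plasminogen activator and that stays largely inside the cell. Its probe (A_55_P2004867, NM_011111) had a signal of 372 ± 37.4 with DMSO and 92.9 ± 9.89 with GW4064, both well above background. The log2 difference of -2.07 was far larger than the software's error of 0.21 and the median copy SD of 0.11 among 77 probes of like signal. It was the 70th lowest of 13533 genes, and among the 4306 genes whose mean signal lay within 4-fold of its own, 2.48% were 2-fold or more lower. The probe was printed once, so that the value rests on 1 spot per array. Within 300 µm of that spot there were 0 other spots with an 8-fold difference, and the median difference of the 118 spots in the surrounding 5 rows and columns was -0.13. Over the 12 other settings the difference lay between -2.25, with centring on spike-in RNA, and -1.54, with normexp, and so stayed past 2-fold in each. Settings that only choose spots or probes could not change the difference, since Serpinb2 has a single probe.

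**Figure D2:**
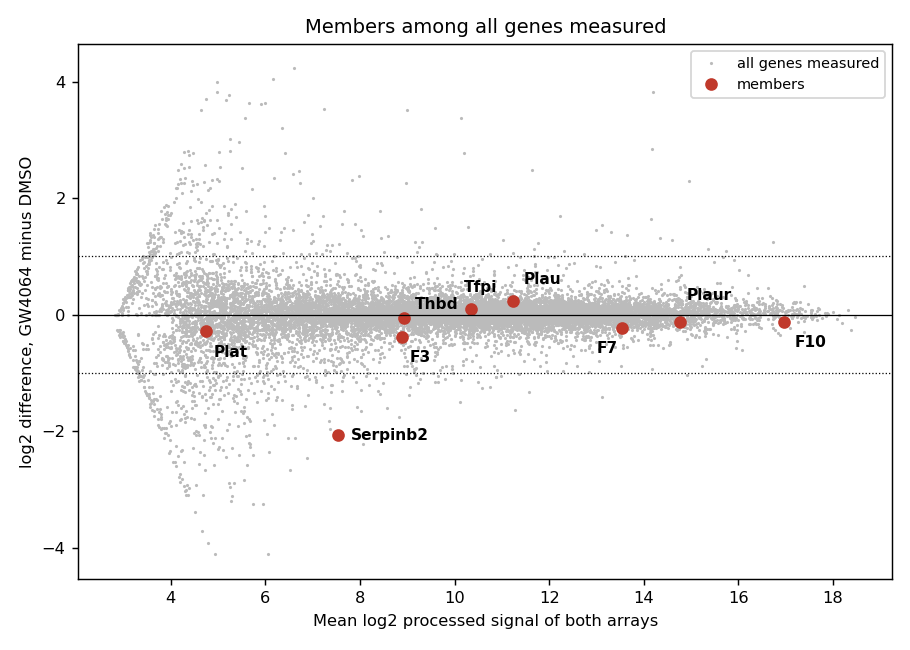
Log2 difference, GW4064 minus DMSO, against the mean log2 signal of both arrays for all 13533 genes measured (grey) and the 9 genes named (red), with dotted lines at 2-fold. Serpinb2 lies at -2.07, below most genes of like signal, and the other 8 lie between the dotted lines.

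F3 encodes tissue factor, the membrane protein that starts coagulation, and its probes did not give the same value. The probe A_55_P1971889 had signals of 813 ± 81.4 with DMSO and 833 ± 83.4 with GW4064, a difference of -0.03 that is inside every error given here. The probe A_65_P08971, matched to the same transcript (NM_010171), had 160 ± 16.6 and 102 ± 10.9, a difference of -0.72, or 1.65-fold lower. The gap of 0.69 between them is wide: of 3240 genes with 2 or more probes well above background on both arrays, 2.50% had a wider one, and the median was 0.12. The spot of the second probe had 3 other spots with an 8-fold difference within 300 µm, whereas the first had 0. With such areas of the slide left out, F3 rested on the first probe alone and its value moved from -0.38 to -0.03. Whether the area or the transcript part that the probe reads set the second value was not tested, and a lower level of tissue factor RNA therefore rests on 1 probe of 2.

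F7 and F10 encode the circulating proenzymes that tissue factor acts on, made mainly in the liver and also known from macrophages, and both were strongly detected. For F7, the probe A_51_P484054 had signals of 12301 ± 1230 with DMSO and 11411 ± 1141 with GW4064. The other F7 probe (A_55_P2045040) had 12898 ± 1290 and 11022 ± 1102. Their differences of -0.17 and -0.29 had the same sign, but the first lay within the software's error of 0.20 and the second past it. F7 as the mean of both was -0.23, lower in each of the 12 other settings. For F10, the probe A_51_P174961 had signals of 38517 ± 3852 and 40100 ± 4010, and the probe A_55_P2106078 had 229591 ± 22959 and 203617 ± 20362. Their differences were -0.01 and -0.24. The F10 probes differed from each other by 0.23, while their mean was -0.12, so the value of F10 depends on the probe: the first lay within the software's error of 0.20 and the second just past it. No spot of the arrays was saturated.

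Thbd and Tfpi encode brakes of coagulation. Thrombomodulin, the product of Thbd, turns thrombin into an activator of protein C, and tissue factor pathway inhibitor blocks factor X and the complex of tissue factor with factor VII. Thbd had signals of 487 ± 48.8 with DMSO and 492 ± 49.3 with GW4064, a difference of -0.05, which is within the copy SD of 0.077 and turned to 0.01 without any shift between the arrays.

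Tfpi was read by 3 probes, of which A_52_P670263 is listed for another transcript (NM_001177319) than the other two (NM_011576). That probe had signals of 602 ± 60.3 and 649 ± 65.0, a difference of 0.04. The probe A_66_P132295 had 2201 ± 220 and 2300 ± 230, a difference of -0.002. The probe A_55_P2095360 had 900 ± 90.0 and 1131 ± 113, a difference of 0.27. The mean was 0.10, and its sign turned to -0.09 when the arrays were centred on spike-in RNA. The brake genes therefore differed by less than the activators' inhibitor Serpinb2, and their widest probe difference was 1.20-fold.

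**Figure D3:**
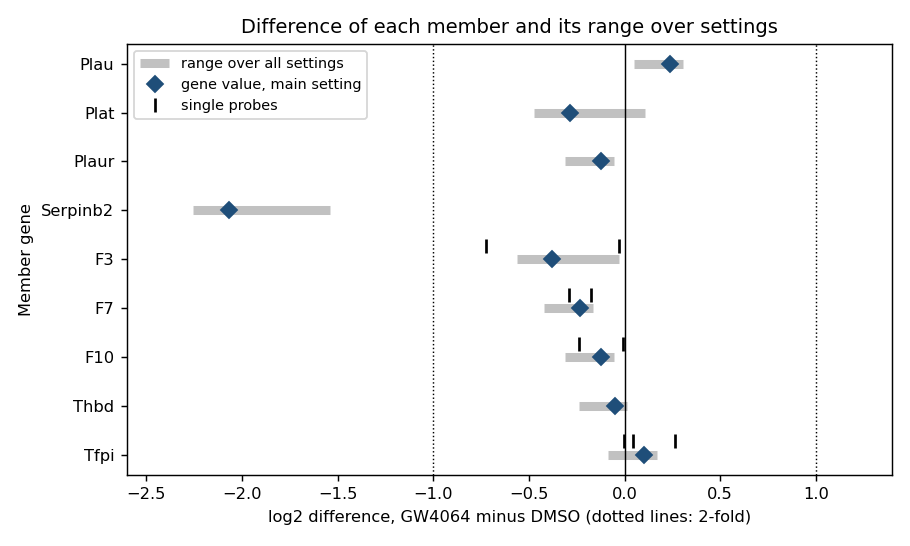
Log2 difference, GW4064 minus DMSO, of each of the 9 genes (diamond), the range of the gene's value over the main and the 12 other settings (grey bar) and, where a gene has several probes, the value of each probe (tick above), with dotted lines at 2-fold. The bar of Serpinb2 runs from -2.25 to -1.54, while those of Plat, Thbd and Tfpi cross 0.

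A constant shift between the arrays cancels when genes on them are compared. Plau minus Serpinb2 was 2.30 on the log2 scale, so that urokinase RNA was 4.94-fold higher relative to PAI-2 RNA on the GW4064 array than on the DMSO array. It lay between 1.82 and 2.30 over the other settings. Only scalings that vary with the signal level, and normexp, could move it, since each gene has a single probe. Most of the difference came from Serpinb2, since Plau alone differed by 0.24.

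Of 45 other genes of both systems, listed by role, 28 were measured and 17 were not well above background on either array. Of the 28, 6 were higher, 21 were lower and 1 (Hrg) had only a bound with no direction, while 48.2% of all genes measured were lower. At 2-fold, 0 were higher and 2 were lower (F13a1 and Mrc2), against 2.04% and 2.71% of all genes. The median of the 28 was -0.21, against 0.0069 over all genes, and -0.12 for the 9 genes above. The list was written with earlier results of these arrays known and is a description only.

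In the plasminogen system, 10 of 13 genes were measured, 3 higher and 6 lower. Serpine2, which encodes a serpin that inhibits urokinase and thrombin, had signals of 91.8 with DMSO and 60.6 with GW4064, a difference of -0.66. Like Serpinb2, it was lower in each of the 12 other settings. Serpini1, which encodes neuroserpin, an inhibitor of tissue plasminogen activator, was 1.41-fold higher (0.50 on the log2 scale, but 0.23 with normexp) on 1 dim probe. The signal of this probe was 24.3 for GW4064 and 16.4 for DMSO. The software did not mark the latter as well above background. It still exceeded the lowest passing value of 15.7 on that array, so the difference is not a bound. The Serpini1 spot had 2 other 8-fold spots within 300 µm.

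The surface proteins that bind plasminogen differed little. Anxa2 and S100a10, the subunits of an annexin complex that binds it, had differences of -0.09 and -0.16, at signals of 209605 and 19083 with DMSO. Eno1, an enzyme of glycolysis that also binds plasminogen, had 0.01 at a signal of 85614, and Plgrkt, a plasminogen receptor, had 0.09. Lrp1, a receptor that clears activators bound to their inhibitors, had -0.15 at a signal of 18297. Mrc2, a collagen receptor that associates with uPAR, had signals of 67.5 and 28.6 at 1 probe, a difference of -1.30 that was -0.48 with normexp, while a further Mrc2 probe stayed near background. Plasminogen itself (Plg), Vtn and Serpinf2 were among the 17 genes near background on both arrays.

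Among factors and cofactors, 9 of 17 genes were measured, 3 higher and 6 lower. F13a1, which encodes the fibrin crosslinking subunit of factor XIII, had signals of 87.6 and 25.2 at 1 probe. The difference was -1.86, or -0.62 with normexp, while a further F13a1 probe stayed near background. For F5, a cofactor of factor X, 1 probe was at least 3.50-fold lower, from a signal of 50.5, and the other differed by -0.17, from 35.4 to 32.9, at a spot with 5 other 8-fold spots within 300 µm. F5 as the mean of both was -0.99, but -1.81 with such areas left out and -0.23 with normexp. Fgl2, a prothrombinase of macrophages, had 354 and 237, a difference of -0.65, with 5 other 8-fold spots within 300 µm. Vwf, the platelet adhesion protein, had 16904 and 16204, a difference of -0.13. Vkorc1, which recycles the vitamin K that F7 and F10 need, differed by 0.23 as the mean of 2 probes. The highest of the group was Kng1, with a difference of 0.59 from dim signals of 19.5 with DMSO and 30.6 with GW4064. The DMSO signal was not well above background. The difference was 0.07 with normexp, and the software's error was 0.51. The 3 fibrinogen chains Fga, Fgb and Fgg and also F2, F8, F11, F12 and F13b were not well above background.

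Among the anticoagulants, 6 of 11 genes were measured and 6 were lower, from -0.18 for Procr, the protein C receptor, to -0.74 for Serping1, an inhibitor of the contact system. The probes of Serping1 gave -0.76, at a spot with 2 other 8-fold spots nearby, and -0.72, at a spot with 0. Anxa5, which covers phospholipids that clotting needs, had a difference of -0.23 at a signal of 115115 with DMSO. In the family of thrombin receptors 3 of 4 genes were measured, all lower, with -0.88 for F2rl2 (72.2 and 41.1), which was -0.30 with normexp, -0.32 for F2r and -0.22 for F2rl3. F2r and F2rl2 were lower in each of the 12 other settings, whereas F2rl3 turned to 0.38 without a filter on dim probes, when a dim probe of it entered the mean. Without that filter 10 of 11 anticoagulants were lower, but this count takes in 5 genes that were not well above background on either array. The median of all 20060 genes was then -0.06, against 0.0069 with the filter.

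**Figure D4:**
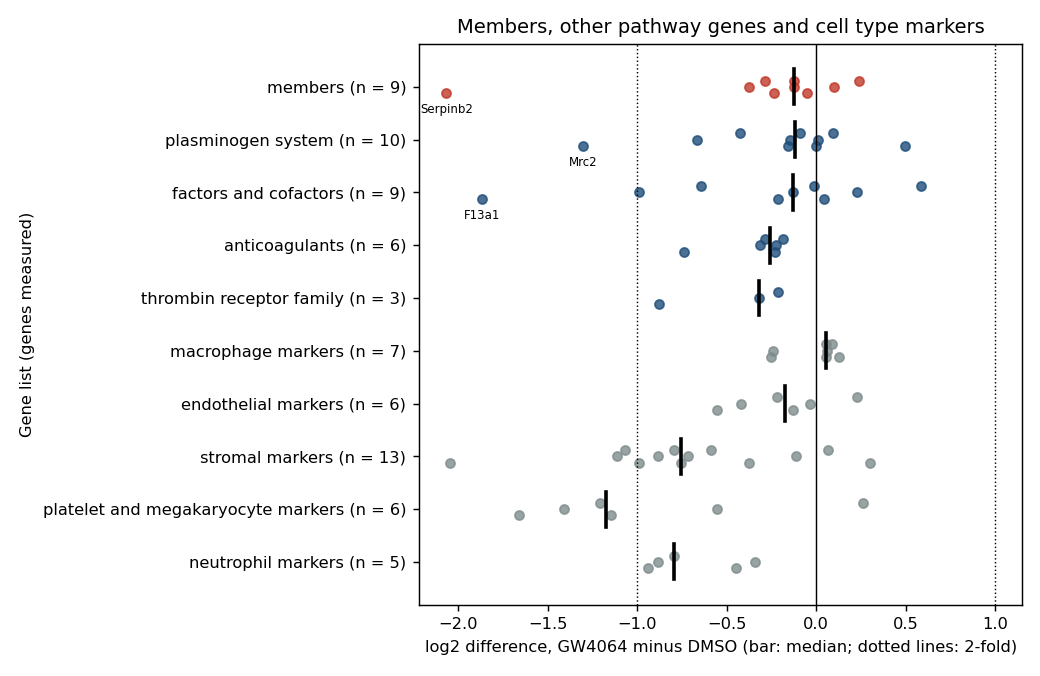
Log2 difference, GW4064 minus DMSO, of the 9 genes (red), of the measured genes of the 4 other role groups (blue) and of cell type markers (grey), with the median of each as a bar and dotted lines at 2-fold. Among the genes of both systems 3 lie below the lower line (Serpinb2, F13a1 and Mrc2). The medians of the stromal, platelet and neutrophil markers sit lower than the median of the macrophage markers.

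Several of these genes are also made by cells other than macrophages, so the markers of such cells are given beside them. In a bulk culture, fewer cells of a type and less RNA per cell cannot be told apart. For the marker counts that follow, 48.2% of all genes measured were lower. The share 2-fold or more lower was 2.71% of all genes, and 0.473% with normexp. Of 14 stromal markers 13 were measured, 11 of them lower, with a median of -0.76 and a summed signal of 38960 with DMSO and 22122 with GW4064. Grem1 (-2.05), Postn (-1.11) and Fbn1 (-1.07) were 2-fold or more lower, but with normexp they were -1.02, -0.98 and -0.75, so that 1 of the 3 stayed past 2-fold. Col1a2 differed by -0.99, Dcn by -0.88, Sparc by -0.80, Pdgfrb by -0.76, Col1a1 by -0.72, Col3a1 by -0.58, Thy1 by -0.37 as a bound and Cxcl12 by -0.11. Pdgfra (0.07) and Kitl (0.30) were higher, and Lum was not well above background.

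Of 6 markers of platelets and megakaryocytes, which store factor XIII and factor V, 6 were measured and 5 were lower, with a median of -1.18 that was -0.27 with normexp. Ppbp had -1.66, Gp1ba -1.41, Gp9 -1.21 and Itga2b -1.14. Gp1ba, Gp9 and Itga2b were not well above background with GW4064, so their values rest on dim spots and are not bounds. With normexp Gp1ba was -0.44, Gp9 -0.35 and Itga2b -0.20. Gp1bb had -0.56 and Pf4 had 0.26. Their summed signal was 25214 with DMSO and 31080 with GW4064, most of it from Pf4.

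Of 6 neutrophil markers, 5 were measured and 5 were lower, namely Mpo (-0.94), S100a9 (-0.88), Ngp (-0.79), S100a8 (-0.45) and Elane (-0.34), with a summed signal of 13450 and 8702. Ly6g had no matched probe. Of 8 endothelial markers 6 were measured and 5 were lower, with a median of -0.17. These were Emcn (-0.55), Pecam1 (-0.42), Cdh5 (-0.22), Vwf (-0.13) and Kdr (-0.03). Cldn5 had 0.23, Tek and Tie1 were not well above background, and the summed signal was 18751 and 18106.

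The 7 macrophage markers differed between -0.25 and 0.13, with a summed signal of 341224 and 326560. They were Adgre1 (-0.25), Csf1r (-0.24), Fcgr1 (0.06), Mertk (0.06), Lyz2 (0.06), Itgam (0.09) and Cd14 (0.13). The part of stromal, platelet or neutrophil cells in the lower values of Serpinb2, F13a1 and F5 was not tested.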

How the data were processed

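Total RNA of each culture was labelled with Cy3 and hybridised to 1 Agilent array. The authors deposited the intensity of each spot after Agilent Feature Extraction 10.7.1.1 had subtracted background, with a spatial trend fitted per the file headers, and the software's error of each intensity. The authors also deposited a log2 table whose difference between arrays equalled the one computed here for all 39200 probes compared, apart from a constant of -0.0022, with no other deviation above 2.78e-06. The direction and scale of that table are thus known, and the baseline of its centring is not; its column medians were 0.035 for DMSO and -0.051 for GW4064. Groups came from the treatment label of each sample. The free-text description of the GW4064 sample repeats that of the DMSO sample, while its title, source and treatment labels all name GW4064. The headers give both arrays the same scan date, and with 1 array per condition no batch could be tested.

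Spots marked as uneven or as outliers among copies were left out, and spots of 1 probe were averaged on the log2 scale. A probe well above background on 1 array only kept its own value on the dim array, unless the lowest passing value there was higher. In that case the lowest passing value was used, and the difference is a bound. A gene is the mean of its measured probes. Transcript accessions without versions were matched to RefSeq symbols of GRCm38.p6, which named 26445 probes. The array design used another build (mm9), so no coordinates are given. The number of arrays limits the precision.

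The 9 genes and all lists were chosen with earlier results of these data known. Of the lists, 1 gene of the plasminogen system and 1 marker are not reported here and enter no count of a list. The text names the 9 genes with every probe, each marker, and those list genes that differed 2-fold, had a signal over 10000 or were the highest or lowest of their role. Other list genes named (Serpine2, Hrg, F5, Fgl2, Plgrkt and F2r, and those named as near background) were chosen after their values were seen. The calculation was checked on simulated data. Alternatives were 5 scalings, the deposited table, normexp (offset 50) on the median spot intensity, marked spots kept, 2 other filters on dim probes, the brightest probe, and leaving out spots with 2 or more 8-fold spots within 300 µm, 12 in all, besides thresholds of 1.5-fold and 4-fold. Normexp ran in limma 3.58.1 under R 4.3.3. All else ran in Python 3.11.15 with pandas 2.3.3 and numpy 2.4.6, with statsmodels 0.14.6 for loess, scipy 1.17.1 for distances between spots and matplotlib 3.10.9 for plots.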

Additional observations from a re-analysis of the deposited data

How the results depend on the processing

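No paired analysis was possible because DMSO and GW4064 were read on a single array apiece, and no replicate could be left out. Of the 9 genes, 0 were 2-fold or more higher and 1 (Serpinb2) was 2-fold or more lower in the main and in each of the 12 other settings. Over these settings, between 0.532% and 3.66% of all genes were 2-fold or more higher, and between 0.473% and 3.83% lower. In the main setting the counts were the same at 1.5-fold and at 4-fold. Serpinb2 did not reach 4-fold with normexp (-1.54), and the share of all genes was not counted at 4-fold. For a gene with a single probe printed once, settings that only choose spots or probes either gave the main value or left the gene out. Such settings are therefore no separate check of that gene. Centring on spike-in RNA moved the median of all genes to -0.18 and that of the 9 genes from -0.12 to -0.31. The other genes of both systems 2-fold or more lower numbered 2 in the main setting, 4 with centring on spike-in RNA and 0 with normexp, while the share of all genes was 2.71%, 3.83% and 0.473%. At 1.5-fold 7 were lower and 1 was higher, against 5.56% and 4.39% of all genes, and at 4-fold 0 were lower. Among the 9 genes normexp moved Serpinb2 (-2.07 to -1.54), Plat (-0.29 to 0.11) and F3 (-0.38 to -0.24), and 1 array per condition limits every value.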

Other observations

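In the gene order of the RefSeq table (GRCm38.p6), Serpinb2 lies on chromosome 1 within a row of related serpin genes. Of its neighbours, Serpinb8 had a log2 difference of 0.07 and Serpinb3c of -0.06. Serpinb3b, Serpinb7 and Serpinb10 were not well above background on either array. Serpinb3c has near-identical copies, and its value is uncertain for that reason. F7 and F10 are direct neighbours on chromosome 8. The genes on either side of this pair were Mcf2l, with a difference of 0.73 over its measured probes, and Proz, which was not well above background, followed by Pcid2 with -0.03.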
